A study of Mus musculus with 11 samples.

Results

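Genes of the unfolded protein response and of the heat shock response were read out in sympathetic ganglia, which hold noradrenergic neurons and their satellite glia. The members were chosen by name: 39 genes, taken through every probe set that the platform annotation assigns to that 1 gene. Of the 39, 38 had such a probe set and 37 passed the filter on low signals, out of 8433 genes that passed in all. They were read by 84 of the 20380 single-gene probe sets, of which 74 passed. Hsp90ab1 had no such probe set. The 6 Apoe-deficient arrays came from male apoE-/- mice of strain C57BL at 78 weeks, and the 5 wild-type arrays from male C57BL mice of the same age. All mice came from the Jackson Laboratory and were kept on normal chow, and ganglia were cut from frozen tissue by laser capture microdissection. Nothing in the labels says which animal an array came from or whether animals were pooled, so p-values measure the spread between these samples, which may be partly technical. The comparison asks how ganglia of mice prone to atherosclerosis differ from those of wild-type mice.

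Proteins that enter the endoplasmic reticulum (ER) are folded there by chaperones such as BiP, the product of Hspa5, and by protein disulfide isomerases. When unfolded protein builds up, the membrane sensors encoded by Ern1, Eif2ak3 and Atf6 act through the transcription factors encoded by Xbp1, Atf4 and Atf6 itself and raise chaperone and degradation genes. The heat shock response is a separate system, in which heat shock factor 1 raises cytosolic chaperones of the Hsp70, Hsp90 and small heat shock families. Nerve cells make large amounts of membrane and secreted protein, and antibody-secreting cells are a classic case of an expanded ER.

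Signals are the deposited linear probe set intensities. Differences are Apoe-deficient minus wild-type on the quantile-normalised log2(signal + 16) scale, which understates changes of low genes, and adjusted p-values come from limma with Benjamini-Hochberg adjustment over all 8433 genes (threshold 0.05). Apoe itself checked the labels: its highest signal in an Apoe-deficient array was 268.2 and its lowest in a wild-type array 11830.3. Of the noradrenergic neuron markers 10 of 12 had a single-gene probe set and all 10 passed the filter, with summed signals of 48419 to 96463 in Apoe-deficient and 67519 to 99450 in wild-type arrays. The hybridisation controls, bacterial and phage transcripts added to each sample, fell into 3 levels. The low level held 3 arrays (Apoe-deficient replicates 2, 3 and 4). The middle level held wild-type replicates 3, 4 and 5 with Apoe-deficient replicate 5, and the high level the other 4 arrays. The low arrays also had the smallest neuron marker sums, 48419 to 53362. These sums are of deposited signals, in which bright genes such as Npy, Th and Ddc weigh most. After quantile normalisation the group differences of the 10 neuron markers had a median of -0.0068, with 5 above 0 and 5 below. Values without the low arrays are given beside the results they change. Apoe-deficient replicate 1 had a 3'/5' ratio of the actin control of 5.16, against 1.88 to 3.55 in the other arrays. A high ratio can be a sign of more degraded or less fully copied RNA. The 3'/5' ratio of the Gapdh control did not single out this array. It was 1.396 there and highest in wild-type replicate 1, at 1.499. The actin ratio was 1.88 to 2.33 in Apoe-deficient replicates 2 to 5, 2.80 in replicate 6 and 2.41 to 3.55 in the wild-type arrays. It thus moved with the groups in part, and its part in the differences was not tested.

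Promoters are shown because the ER chaperone genes lay on the same side together in the arrays, and some of these promoters hold the element through which the unfolded protein response is known to act. RefSeq promoter windows (GRCm38.p6) were found for 32 of the 39 members. In the 250 bases before the start, the ER stress response element, spelled CCAAT and CCACG with 9 bases of any kind between them and searched on both strands, occurred in 7 of 13 windows of ER chaperone and folding genes (53.8%), against 0.113% of all 32851 windows. These genes were Hspa5, Hsp90b1, Calr, Canx, Creld2, Dnajc3 and Pdia6. Hsp90b1 held it at 2 places. The list was named for this response, so a high share of the element was built in by the choice of genes. The share comes from the reference genome and says nothing about activity in these ganglia. Among the degradation genes Syvn1 held the same element, and Herpud1 held the related element ATTGG and CCACG with 1 base between them, which occurred in 0.0304% of all windows. Neither element was in the windows of the cytosolic heat shock genes found. The heat shock element in its strict form, GAA, TTC and GAA with 2 bases between each, occurred in 0.466% of all windows. It was in those of Hspd1 and Hspe1, the mitochondrial chaperonin genes, at the same place between both genes, where their windows overlap. The windows of Hspa1a, Hspa1b and the other cytosolic heat shock genes found did not hold these letters. Looser spellings were not searched, so this does not show that they lack a heat shock element. The stretches below are printed 5′ to 3′ on the strand of the gene, with ER stress response elements, or in Hspe1 the overlapping heat shock elements, in capitals. Hspa5 lies on the plus strand (chr2:34771930-34772089), Hsp90b1 on the minus strand (chr10:86705445-86705694), Creld2 on the plus strand (chr15:88819486-88819645), Pdia4 on the minus strand (chr6:47813513-47813672) and Hspe1 on the plus strand (chr1:55087988-55088147). Pdia4 has no exact match and is shown because it had the largest difference.
Hspa5: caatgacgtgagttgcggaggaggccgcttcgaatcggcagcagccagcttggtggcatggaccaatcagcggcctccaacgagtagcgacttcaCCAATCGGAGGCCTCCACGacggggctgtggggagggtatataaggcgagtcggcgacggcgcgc
Hsp90b1: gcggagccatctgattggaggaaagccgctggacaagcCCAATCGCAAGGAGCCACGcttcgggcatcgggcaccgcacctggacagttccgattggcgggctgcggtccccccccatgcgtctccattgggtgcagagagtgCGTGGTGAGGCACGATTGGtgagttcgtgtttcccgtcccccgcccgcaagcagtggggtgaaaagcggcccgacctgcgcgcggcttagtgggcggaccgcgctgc
Creld2: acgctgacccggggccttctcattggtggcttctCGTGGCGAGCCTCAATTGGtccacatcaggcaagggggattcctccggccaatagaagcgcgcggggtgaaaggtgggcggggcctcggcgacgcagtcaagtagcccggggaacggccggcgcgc
Pdia4: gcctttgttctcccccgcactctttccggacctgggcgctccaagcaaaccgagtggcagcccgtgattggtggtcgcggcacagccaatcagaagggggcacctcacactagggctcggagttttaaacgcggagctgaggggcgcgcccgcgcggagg
Hspe1: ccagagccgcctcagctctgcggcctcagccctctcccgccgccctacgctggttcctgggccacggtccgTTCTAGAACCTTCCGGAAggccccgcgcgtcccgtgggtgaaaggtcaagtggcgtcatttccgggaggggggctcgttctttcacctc

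ER chaperones and folding enzymes were higher in Apoe-deficient ganglia as far as direction goes, and 2 of the 15 passed the test. Manf, which encodes a secreted ER-resident survival factor, and Pdia4, a protein disulfide isomerase gene, rose. No member of the group fell. All 15 differences were above 0, from 0.16 for Pdia6 to 1.08 for Pdia4, with a median of 0.34. Over all genes tested 43% of differences were above 0 and the median was -0.041. Of all genes 1.93% passed the test, 1.26% higher and 0.676% lower, and 2.96% had groups without overlap. Of the 15 ER genes 1 had groups without overlap, and 10 had an unadjusted p under 0.05, against 20.3% of all genes. The genes of the group are not independent of each other, so these counts describe the group and are no test.

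**Figure D1:**
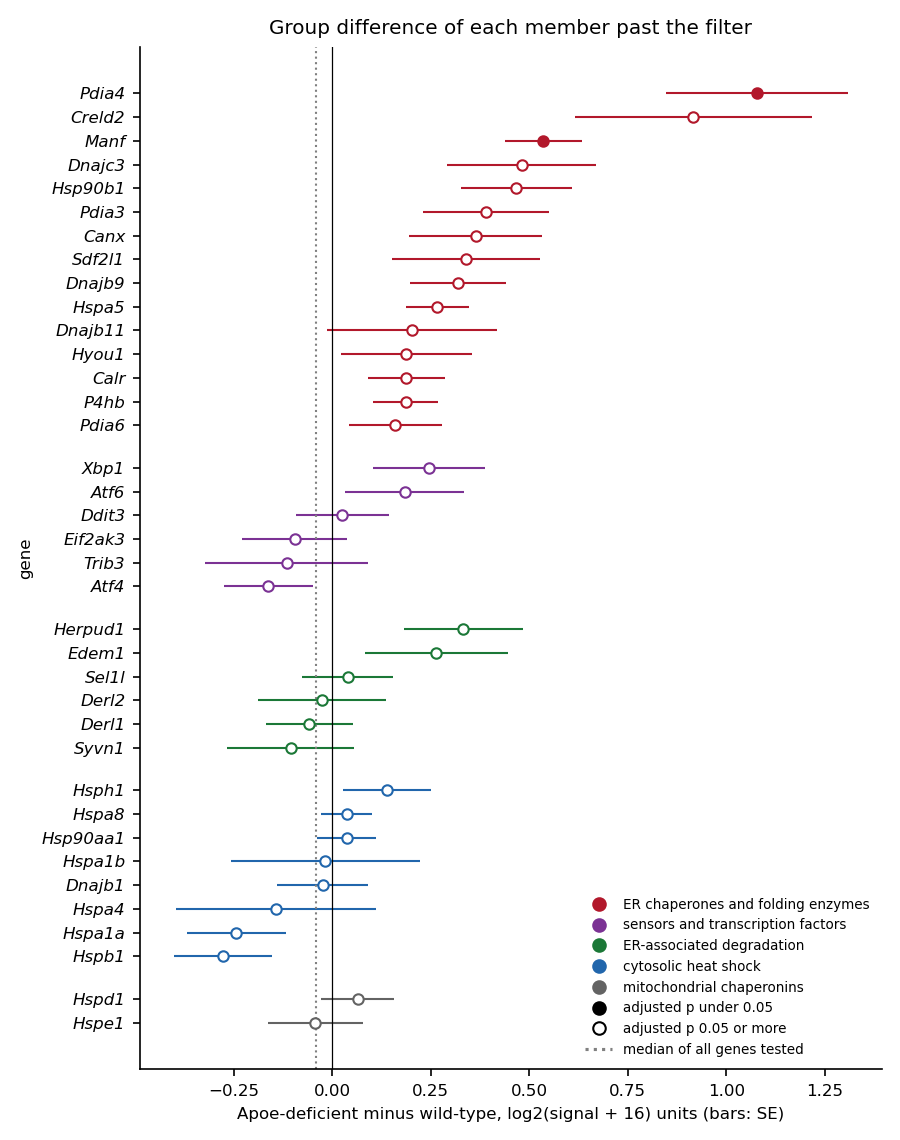
Difference between the group means (Apoe-deficient minus wild-type, log2 units, bars showing the SE) for the 37 members past the filter, by role; filled points passed the adjusted threshold and the dotted line is the median of all genes. All 15 ER chaperone and folding genes lie above 0, while the cytosolic heat shock genes lie from -0.28 to 0.14.

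Manf separated the groups completely. Its signal in the Apoe-deficient arrays had a lowest value of 1218.4, a median of 1425.8 and a highest value of 1502.9. In wild-type replicates 1 to 5 it was 823.4, 952.2, 1063.2, 1061.2 and 878.5. All 6 Apoe-deficient arrays lay above the highest wild-type array, as did those of 1.46% of all genes, while 1.51% had all of them below. The means were 1402 ± 95.7 (SD, n = 6) and 956 ± 107 (SD, n = 5), a difference of 0.54 (SE 0.097, limma adjusted p = 0.0116). An exact two-sided permutation test over the 462 splits gave p = 0.0043, the smallest it can give. Manf kept its call in all 11 fits that left out 1 array (0.49 to 0.57). It lost it in the fits that took the control levels into account, where the size stayed the same: 0.55 with the level blocked (adjusted p = 0.062), 0.52 without the 3 low arrays (adjusted p = 0.157) and 0.57 within the high level alone (adjusted p = 0.454). Over all alternatives the adjusted p ran from 0.0053 to 0.454.

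Pdia4 had the largest difference of all members. In the Apoe-deficient arrays its signal had a lowest value of 305.4, a median of 646.7 and a highest value of 958.1, while wild-type replicates 1 to 5 had 203.2, 313.7, 342.7, 330.1 and 216.1. Of the 6 Apoe-deficient arrays 5 lay above every wild-type array, and Apoe-deficient replicate 1, the array with the high actin ratio, lay among the wild-type values. The means were 635 ± 210 (SD, n = 6) and 281 ± 66.2 (SD, n = 5), a difference of 1.08 (SE 0.23, limma adjusted p = 0.0277; exact two-sided permutation p = 0.0173). The call was sensitive to single arrays. It was lost without Apoe-deficient replicate 2 (1.07, adjusted p = 0.060), 3 (0.95, 0.066) or 4 (1.05, 0.062), and without wild-type replicate 1 (0.97, 0.092), 2 (1.13, 0.059) or 5 (0.99, 0.080). With the control level blocked the difference was 0.87 (adjusted p = 0.230), without the low arrays 0.80 (adjusted p = 0.316) and within the high level 0.81 (adjusted p = 0.574). Over all alternatives the adjusted p ran from 0.0023 to 0.574. A further Pdia4 probe set lay below the filter, with mean signals of 74.5 and 80.5 and a difference of -0.12.

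The abundant ER chaperones shifted less. Hspa5, the BiP gene, had a lowest signal of 5010.1, a median of 5851.3 and a highest of 6377.6 in Apoe-deficient arrays, and 4746.2, 4850.6, 5328.8, 5107.2 and 4490.3 in the wild-type arrays. The difference was 0.27 (SE 0.080, limma adjusted p = 0.101), with 5 of 6 Apoe-deficient arrays above all wild-type arrays. A further Hspa5 probe set gave 0.51, and when every probe set was tested as a row of its own it passed (adjusted p = 0.048). Hspa5 was also called with the mean of its probe sets (0.39, adjusted p = 0.044), with array weights (0.28, adjusted p = 0.042) and without Apoe-deficient replicate 5 (0.31, adjusted p = 0.046), in a range of 0.042 to 0.487 over the alternatives. It was not called with the control level blocked (0.19, limma adjusted p = 0.459) or without the low arrays (0.22, limma adjusted p = 0.487). Hsp90b1 encodes the ER member of the Hsp90 family. Its signal ran from 4914.3 over a median of 5950.2 to 6846.2 in Apoe-deficient arrays, and the wild-type arrays had 3488.6, 3733.1, 4854.5, 5525.1 and 4578.2. The groups overlapped through wild-type replicate 4 only, which lay above 2 Apoe-deficient arrays. The difference was 0.47 (SE 0.14, limma adjusted p = 0.102). It was called with array weights (0.55, adjusted p = 0.029) and without Apoe-deficient replicate 1 (0.53, adjusted p = 0.0496), in a range of 0.029 to 0.572.

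The remaining ER folding genes did not pass. Creld2, which encodes an ER protein induced under ER stress, is singled out here after its values were seen. Its signal was 378.4, 205.9, 208.3, 229.3, 469.7 and 888.0 in Apoe-deficient replicates 1 to 6 and 156.1, 176.4, 211.4, 158.8 and 188.1 in the wild-type arrays, so the high values came from replicates 1, 5 and 6, none of them a low control array. The difference was 0.92 (SE 0.30, limma adjusted p = 0.125). It was 1.54 with the control level as a block (limma adjusted p = 0.0172) and 1.52 without the low arrays (adjusted p = 0.0245), and 1.72 within the high level (adjusted p = 0.339). Dnajc3 (0.48), Pdia3 (0.39), Canx (0.36), Sdf2l1 (0.34) and Dnajb9 (0.32), which encode co-chaperones, a disulfide isomerase and the lectin chaperone calnexin, had adjusted p-values of 0.17 to 0.32. Without the low arrays these 5 were smaller: 0.15 for Dnajc3, 0.18 for Pdia3, 0.055 for Canx, 0.21 for Sdf2l1 and 0.12 for Dnajb9, and Hsp90b1 was 0.29. Dnajb11 (0.20), Calr (0.19), Hyou1 (0.19), P4hb (0.19) and Pdia6 (0.16) had adjusted p-values of 0.226 to 0.616. Without the low arrays Hyou1 was 0.47 and Pdia6 0.32, larger than with them. The ER folding genes with the stress element in their window ranged from 0.16 to 0.92, and those whose window lacked it from 0.19 to 1.08, so the element did not divide the group by size.

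**Figure D2:**
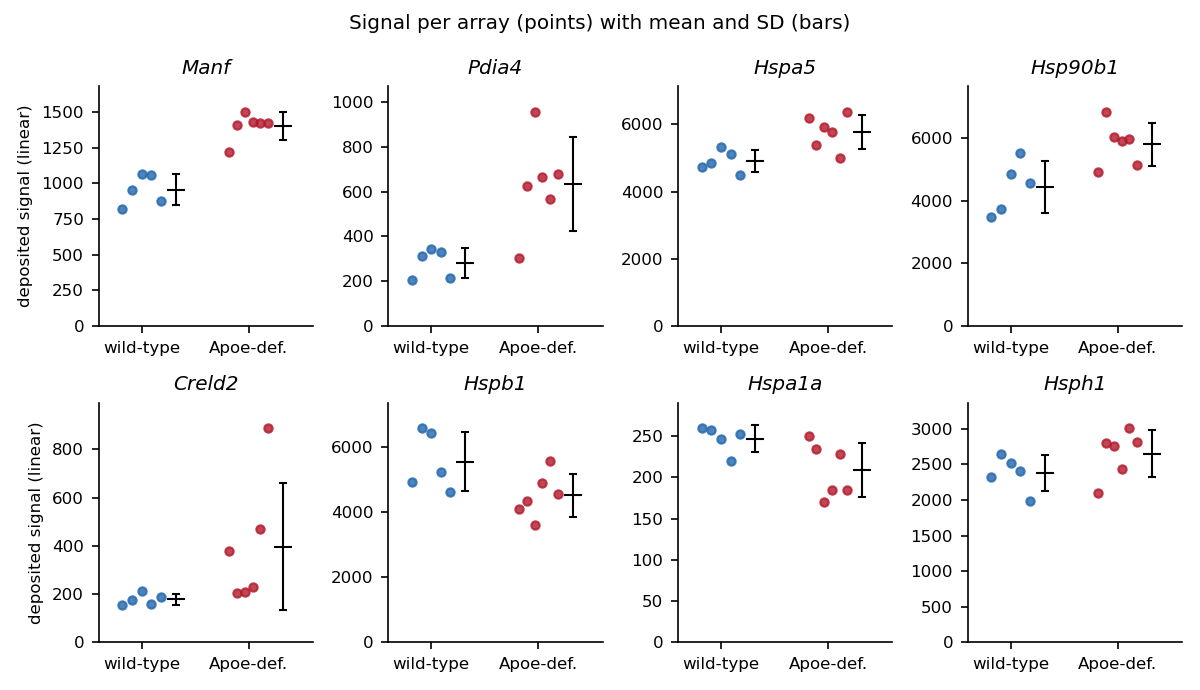
Deposited linear signal of 8 members in each array (points), with the group mean and SD (bars); the vertical axes start at 0. Manf separates the 5 wild-type from the 6 Apoe-deficient arrays, Pdia4 does so but for 1 array, and the cytosolic genes Hspb1, Hspa1a and Hsph1 overlap.

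Several ER genes were read by more than 1 probe set. Of the 25 ER folding probe sets past the filter 24 had a difference above 0, with a median of 0.36. Of the 6 genes with several probe sets, 5 had all of them on the same side. The exception was Hyou1, an Hsp70-like chaperone gene, at 0.19 and -0.18. The sizes disagreed within Canx (0.0007, 0.36 and 1.03) and Hsp90b1 (0.47 and 0.87), so a single probe set does not fix the size of a gene's difference.

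The sensors and transcription factors did not shift as a group. Of 7 genes 6 passed the filter. In limma 0 passed the test, against 1.93% of all genes, and 0 had an unadjusted p under 0.05, against 20.3%. Of these 6 differences 3 were above 0 and the median was -0.035, against 43% and -0.041 over all genes. With so few genes, 0 calls is what the share over all genes would give. Xbp1 encodes the transcription factor that the Ern1 product activates by splicing. Its signal had a lowest value of 4001.6, a median of 5506 and a highest value of 8649.3 in Apoe-deficient arrays, and 4839.3, 4570.3, 5153.7, 4653.7 and 4278.0 in wild-type arrays. The groups overlapped, with Apoe-deficient replicates 1, 5 and 6 above all wild-type arrays, the same 3 arrays in which Creld2 was high. The difference was 0.25 (SE 0.14, limma adjusted p = 0.339), and 0.51 with the control level blocked (adjusted p = 0.136, the lowest over the alternatives, which reached 0.501). Its other probe sets past the filter gave 0.42, 0.27 and 0.11. The probe sets do not separate the spliced from the unspliced form here.

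Atf4, whose product acts downstream of the kinase encoded by Eif2ak3, pointed the other way. Its signal ran from 1045.1 over a median of 1239.4 to 1423.0 in Apoe-deficient arrays, against 1625.9, 1195.7, 1417.0, 1231.1 and 1455.4 in wild-type arrays (difference -0.16, SE 0.11, limma adjusted p = 0.419). Its other probe set past the filter gave 0.038. Atf6, the gene of a sensor that is cut to release a transcription factor, had Apoe-deficient values of 258.8 at the lowest, 396.2 at the median and 533.7 at the highest. The wild-type values were 417.7, 333.8, 320.0, 288.9 and 327.4 (difference 0.18, SE 0.15, limma adjusted p = 0.506). Eif2ak3 (-0.095), Trib3 (-0.12) and Ddit3 (0.026), the last encoding the pro-apoptotic factor CHOP, also overlapped between groups. A further Trib3 probe set past the filter gave -0.41. The 95% interval of the Ddit3 difference was -0.23 to 0.28. Ern1 did not pass the filter: its brightest probe set had mean signals of 91.2 ± 51.5 (SD, n = 6) and 114 ± 19.0 (SD, n = 5).

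ER-associated degradation genes, whose products return misfolded protein to the cytosol for breakdown, gave 0 calls in limma among 6, and 1 had an unadjusted p under 0.05. Over all genes these shares were 1.93% and 20.3%. The median of the 6 was 0.0068, with 3 above 0 and 3 below, against a median of -0.041 and 43% above 0 over all genes. Of the 15 degradation probe sets past the filter 11 were above 0, with a median of 0.21. Without the low arrays the median of the 6 genes was 0.13, with 5 above 0. Herpud1, which organises the degradation complex, had the smallest p. Its signal was 798.6, 651.3, 591.4, 638.4, 957.1 and 1001.1 in Apoe-deficient replicates 1 to 6 and 584.8, 520.2, 597.5, 684.3 and 618.2 in wild-type arrays. Apoe-deficient replicates 1, 5 and 6 were again the high ones. The difference was 0.33 (SE 0.15, limma adjusted p = 0.237). With the control level blocked it was 0.66 and passed (limma adjusted p = 0.0308), in a range of 0.0308 to 0.421 over the alternatives.

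Edem1 encodes a lectin that picks out misfolded glycoproteins. Its signal ran from 388.5 over a median of 595.0 to 881.0 in Apoe-deficient arrays, against 582.4, 596.5, 446.3, 428.0 and 498.0 in wild-type arrays (difference 0.26, SE 0.18, limma adjusted p = 0.413). A further Edem1 probe set gave 1.41 (limma adjusted p = 0.080 with every probe set as a row). Syvn1, the ubiquitin ligase gene of the complex, ran from 410.6 over a median of 585.6 to 773.3 in Apoe-deficient arrays. The wild-type arrays had 690.1, 608.6, 759.5, 503.4 and 567.2 (difference -0.11, SE 0.16, limma adjusted p = 0.736). Sel1l (0.039), Derl2 (-0.026) and Derl1 (-0.058), which form the membrane channel and its scaffold, lay near 0 in the probe set of highest mean. Their other probe sets ranged from -0.33 to 0.42. The other Derl2 probe set gave 0.41 (limma adjusted p = 0.110 with every probe set as a row). Its signals were 270.4 to 401.5 in Apoe-deficient and 219.6 to 237.7 in wild-type arrays.

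Cytosolic heat shock genes did not follow the ER chaperones. Of 9 genes 8 passed the filter. In limma 0 passed the test, against 1.93% of all genes, and 1 had an unadjusted p under 0.05, against 20.3%. Of these 8 differences 3 were above 0, and the median was -0.021, against 43% and -0.041 over all genes. The group thus lay close to all genes. Of its 20 probe sets past the filter 11 were above 0, with a median of 0.018. Hspb1, the gene of the small heat shock protein Hsp27, which is abundant in peripheral neurons, leaned lower. Its signal had a lowest value of 3615.4, a median of 4455.4 and a highest value of 5563.2 in Apoe-deficient arrays, against 4910.4, 6575.7, 6434.4, 5218.9 and 4609.0 in wild-type arrays. The normalised value lay below all wild-type arrays in 4 of the 6 Apoe-deficient ones. The difference was -0.28 (SE 0.12, limma adjusted p = 0.230). A further probe set gave -0.21.

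The inducible Hsp70 genes, the most heat-responsive members, gave no call. Hspa1a ran from 170.2 over a median of 206.4 to 250.4 in Apoe-deficient arrays. It was 259.4, 257.4, 246.3, 219.6 and 251.9 in wild-type arrays (difference -0.24, SE 0.13, limma adjusted p = 0.293), and the normalised value lay below all wild-type arrays in 5 of the 6 Apoe-deficient ones, the deposited signal in 3. Hspa1b gave -0.018 (95% interval -0.53 to 0.50), with further probe sets at -0.14 and 0.12. Hspa1a and Hspa1b are near-identical copies, so their probe sets cannot be taken as separate measurements. Hsph1, an Hsp110 gene whose product serves Hsp70, ran from 2091.5 over a median of 2780.8 to 3007.7 in Apoe-deficient arrays. Its wild-type values were 2318.3, 2643.7, 2518.4, 2413.5 and 1988.9 (difference 0.14, SE 0.11, limma adjusted p = 0.486). Its other probe set gave 0.50. Dnajb1, an Hsp40 co-chaperone gene, gave -0.024 and Hspa4, another Hsp110 gene, -0.14.

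The abundant cytosolic chaperones gave no call. Hspa8 encodes the constitutive Hsp70. Its deposited signal ran from 12524.5 over a median of 17127 to 29618.8 in Apoe-deficient arrays, and was 26532.7, 28357.0, 19880.0, 20745.5 and 19288.7 in wild-type arrays. The spread followed the control level: the 3 low arrays held the 3 lowest signals and the 4 high arrays the 4 highest. After quantile normalisation the difference was 0.037 with a 95% interval of -0.10 to 0.17 (limma adjusted p = 0.774), and with no step between arrays it was -0.29, outside that interval. Its 3 other probe sets past the filter gave -0.046 to 0.053. Hsp90aa1, the stress-inducible cytosolic Hsp90 gene, ran from 9220.7 over a median of 9856.1 to 13887.6, against 11590.3, 13539.5, 10623.1, 12365.5 and 11108.5. Its difference was 0.037 with a 95% interval of -0.12 to 0.20 (limma adjusted p = 0.809). With no step between arrays it was -0.12, and its other probe sets past the filter gave 0.36 and 0.16. A p above the threshold does not show that these genes were alike between groups.

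The mitochondrial chaperonin pair, which folds imported proteins, lay near 0. Hspd1 ran from 3423.1 over a median of 4028.6 to 4534.9 in Apoe-deficient arrays, and was 3492.9, 3823.4, 4180.7, 4071.9 and 3834.2 in wild-type arrays (difference 0.065, SE 0.092, limma adjusted p = 0.716). Hspe1 ran from 1781.5 over a median of 1968.8 to 2788.3, against 2094.2, 2282.6, 2102.4, 2486.7 and 1755.0 (difference -0.043, SE 0.12, limma adjusted p = 0.862).

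ER chaperones and cytosolic heat shock genes were then set side by side in each array. Each gene was centred on its mean over the 11 arrays, and the median over the group was taken. The ER median was 0.068, 0.28, 0.24, 0.19, 0.19 and 0.13 in Apoe-deficient replicates 1 to 6. It was -0.30, -0.20, -0.029, -0.14 and -0.21 in wild-type replicates 1 to 5, so the groups did not overlap. The cytosolic median was -0.022, 0.12, -0.036, -0.028, 0.030 and -0.13 in the Apoe-deficient arrays and -0.067, 0.024, 0.17, 0.045 and -0.060 in the wild-type arrays, and the groups overlapped. The ER median minus the cytosolic median lay between 0.090 and 0.28 in the 6 Apoe-deficient arrays and between -0.24 and -0.15 in the 5 wild-type arrays. The difference of the group medians, 0.34 for ER genes and -0.021 for cytosolic genes, was 0.36. No test was made of these medians, because genes are not replicates and the lists were chosen with earlier results known.

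**Figure D3:**
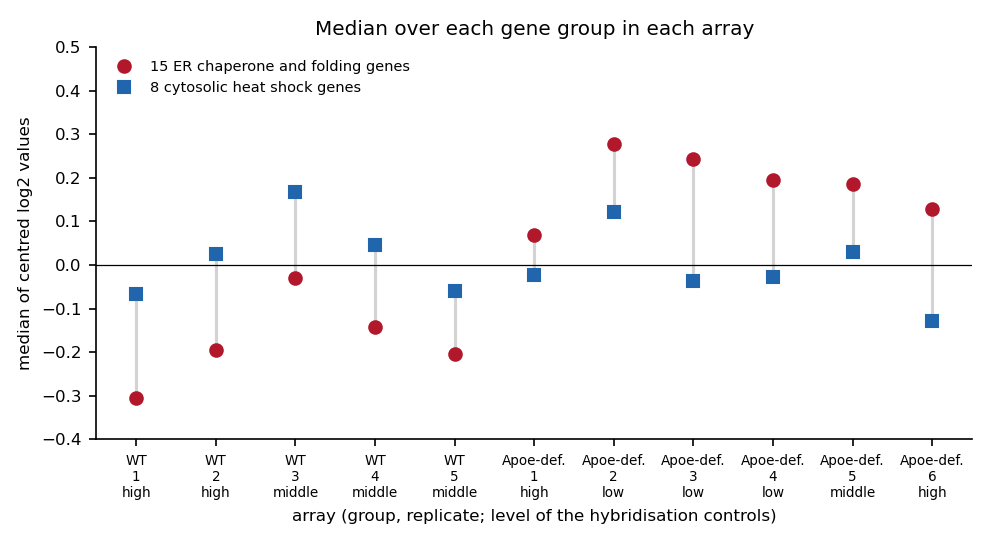
Median of the centred log2 values over 15 ER chaperone and folding genes (circles) and 8 cytosolic heat shock genes (squares) in each of the 11 arrays, with the level of the hybridisation controls under each array. The ER median lies above the cytosolic median in all 6 Apoe-deficient arrays and below it in all 5 wild-type arrays.

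The control level moved with the groups in part, and the ER shift was looked at inside it. The low level held Apoe-deficient arrays only. Within the high level, 2 Apoe-deficient arrays (ER medians 0.068 and 0.13) stood against 2 wild-type arrays (-0.30 and -0.20), and the median ER difference was 0.35, with 14 of 15 genes above 0. Sdf2l1 was the exception (-0.047). In the middle level 1 Apoe-deficient array (0.19) stood against 3 wild-type arrays (-0.029, -0.14 and -0.21). With the level as a block the median ER difference was 0.26 and without the low arrays 0.24, and all 15 genes stayed above 0 in both. The cytosolic median was -0.11 in both. Leaving out Apoe-deficient replicate 1 raised the ER median to 0.49 and the count of called members to 5: Manf, Pdia4, Hsp90b1, Canx and Sdf2l1. In that fit 3.11% of all genes were called.

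**Figure D4:**
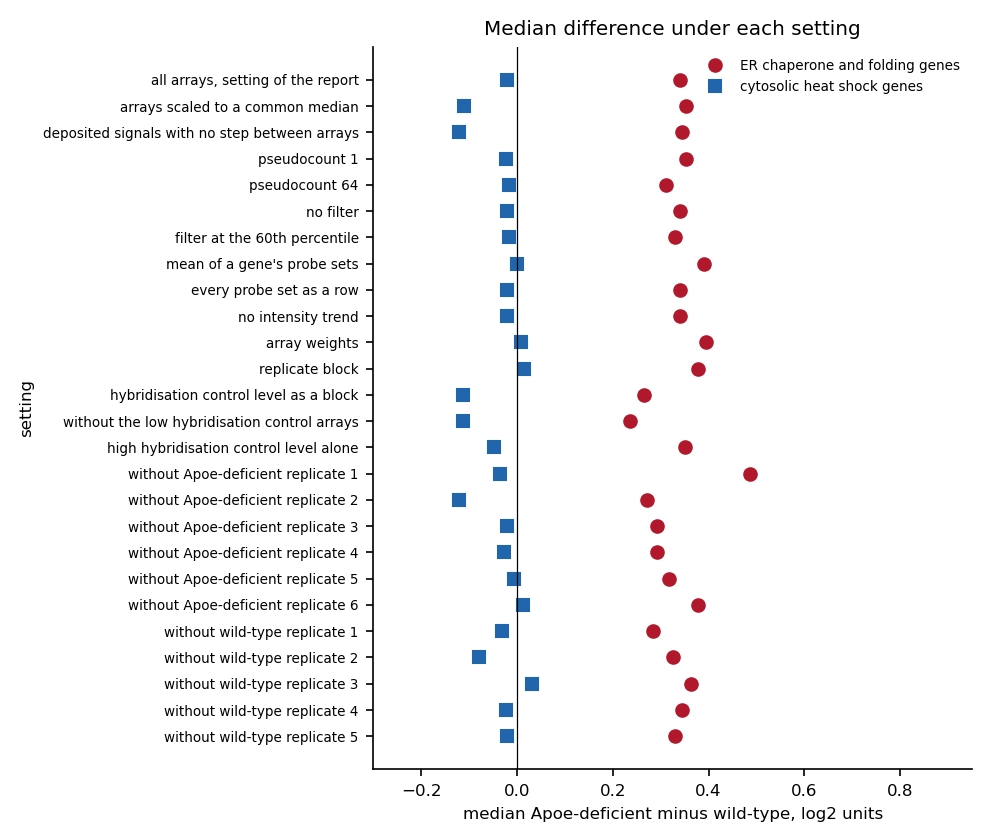
Median difference (Apoe-deficient minus wild-type, log2 units) of the ER chaperone and folding genes (circles) and of the cytosolic heat shock genes (squares) under each processing setting and without each array in turn. The ER median lies between 0.24 and 0.49 throughout and the cytosolic median between -0.12 and 0.031.

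Other genes of the same pathways were taken from lists built by function, with earlier results of these data known. Of 33 measured genes of ER import, glycosylation and export, 2 rose and 0 fell, against 1.26% and 0.676% of all genes. Of their differences 23 were above 0, against 43% of all genes, and the median was 0.12. An unadjusted p under 0.05 was seen for 11, against 20.3% of all genes. For 3 of them, Tram1, Ssr4 and Txndc5 (0.61, limma adjusted p = 0.141), the groups did not overlap, against 2.96% of all genes. Tram1, a component of the ER import channel, was 1100.6, 1142.3, 1217.3, 1105.3, 987.6 and 1010.2 in the Apoe-deficient arrays and 787.6, 771.6, 737.6, 835.7 and 781.0 in the wild-type arrays, with no overlap. It rose by 0.45 (SE 0.088, limma adjusted p = 0.0175). Ssr4, a subunit of the translocon-associated complex, rose by 0.52 (SE 0.12, limma adjusted p = 0.0418). Its signal was 1506.6 to 2376.9 in Apoe-deficient and 1095.9 to 1452.0 in wild-type arrays. Without the low arrays neither passed, at 0.41 for Tram1 (limma adjusted p = 0.188) and 0.49 for Ssr4 (limma adjusted p = 0.163). Of 25 further stress signalling and degradation genes, limma called 0 and 4 had an unadjusted p under 0.05, with a median of -0.11. Wfs1, which encodes an ER membrane protein, stood at -0.42 (limma adjusted p = 0.126), and Ufd1, a degradation cofactor gene, at -0.33 (limma adjusted p = 0.133).

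Among 38 further cytosolic chaperone and heat shock genes limma called 0, and 8 had an unadjusted p under 0.05, a share close to the 20.3% of all genes. Of these 38 differences 24 were above 0, with a median of 0.056, beside 23 of 33 for the further ER genes and 3 of 8 for the cytosolic members. Chordc1, an Hsp90 co-chaperone gene, stood at 0.58 (SE 0.15, limma adjusted p = 0.066), with 5 of 6 Apoe-deficient arrays above the wild-type arrays. St13, an Hsp70 co-chaperone gene, stood at 0.63 (SE 0.18, limma adjusted p = 0.081), with all 6 above. Of 6 further mitochondrial chaperone genes 0 passed in limma and 1 had an unadjusted p under 0.05. Trap1 stood at -0.23 (limma adjusted p = 0.219) and Lonp1, a protease gene, at -0.23 (limma adjusted p = 0.370).

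Markers of other cell types moved with the groups, and in such bulk samples more cells of a type and more RNA per cell cannot be told apart. Of 13 B and plasma cell markers 10 had a single-gene probe set and 6 passed the filter. Irf4, Tnfrsf17, Cd79a and Cd79b did not pass it. The summed signal of the 10 was 12701 to 67320 in Apoe-deficient and 1241 to 17477 in wild-type arrays. The highest wild-type value belonged to replicate 4, and the other wild-type arrays reached 2143. Its marker sum exceeded those of Apoe-deficient replicates 2, 3 and 4. In that replicate the ER median was -0.14, inside the range of the other wild-type arrays. Of the 15 ER folding genes 5 had their highest wild-type signal there (Hsp90b1, Canx, Dnajb9, Dnajc3 and Pdia3) and 2 their lowest (Hyou1 and Sdf2l1). In wild-type replicate 3, which had the lowest marker sum (1241), 7 of the 15 had their highest wild-type signal and 1 its lowest. The ER median of that array, -0.029, was the highest of the wild-type arrays. Apoe-deficient replicate 6 had the highest marker sum and also the highest signals of Creld2, Xbp1, Herpud1 and Edem1. Its ER median, 0.13, was the lowest of its group but for replicate 1 (0.068). Among the ER folding genes Hspa5 and Pdia6 were also highest in replicate 6, while Calr, Dnajb9 and Dnajc3 had their lowest Apoe-deficient signals there.

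The 10 macrophage markers all passed the filter and summed to 7113 to 10057 in Apoe-deficient and 4428 to 5869 in wild-type arrays, without overlap, and 6 of them rose. The mast cell sums (6 of 6 markers had a probe set and 5 passed the filter) were 1758 to 4967 and 734 to 1779, with 4 markers called higher. The fibroblast sums were 10526 to 16628 and 7988 to 12271, with 0 of 6 markers called by limma and 3 at an unadjusted p under 0.05. The adipocyte markers pointed the other way: 4 of 4 past the filter were below 0, with a median of -0.75, sums of 3451 to 26387 and 10498 to 33391, and 0 called by limma or at an unadjusted p under 0.05. Without the low arrays limma called 0 of the macrophage, mast cell and plasma cell markers, with 7 of 9, 3 of 4 and 4 of 4 at an unadjusted p under 0.05. The part of these cells in the ER gene differences was not tested.

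**Figure D5:**
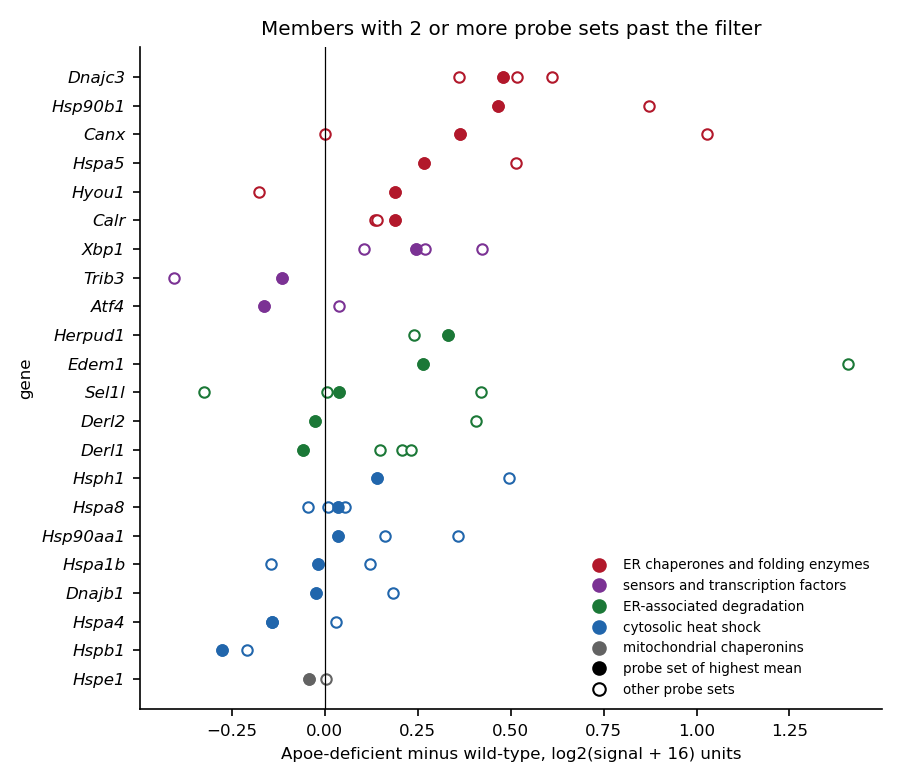
Difference (Apoe-deficient minus wild-type, log2 units) of every probe set past the filter for the members with at least 2 of them; filled points mark the probe set of highest mean, which represents the gene elsewhere. Of 22 such genes 12 have all their probe sets on the same side of 0, among them 5 of 6 ER folding genes and 3 of 7 cytosolic heat shock genes.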

How the data were processed

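Total RNA of laser-captured sympathetic ganglia was hybridised to 11 arrays. The authors deposited signals per probe set on a linear scale (intensity). Their processing software was GCOS 1.4, per the submitters' processing notes, with the algorithm not given in the sources used here. Arrays shared nearly 1 trimmed mean and had a median signal of 163 to 188.6. No depth applies to arrays, and their number limits the precision.

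The table held 22690 probe sets, 64 of them array controls, and 20380 with 1 gene symbol in the platform annotation used, 691 with several and 1555 with none. Signals were taken to log2(signal + 16), quantile normalised without controls, and kept where at least 5 arrays lay above the 40th percentile of the table. The probe set of highest mean stood for a gene. The groups were compared by limma 3.58.1 under R 4.3.3 (intensity trend, two-sided, Benjamini-Hochberg adjustment, threshold 0.05), checked on simulated data. Figures used matplotlib 3.10.9.

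The members and all lists were chosen with earlier results of these data known. Array values are given for called members, for the 3 of smallest p in each role and for the 2 of highest mean among ER folding and cytosolic genes; Creld2 was added after its values were seen. Of other pathway genes, those called or else the 2 of smallest p per list are named. Alternatives covered scaling, pseudocounts of 1 and 64, other filters, other choices of probe set, a constant variance prior, weighted arrays, leaving out single arrays, blocking on replicate number, and the hybridisation control level, which was cut at the 2 widest gaps between arrays; the fit within the high level was added after seeing the data.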

Additional observations from a re-analysis of the deposited data

Results flagged for a closer look

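Among the array values given for members and for the ER and cytosolic medians, 40 groups of arrays were checked for a single array far from the rest, and chance flags about 1 group in 20. For Hspa8, the constitutive Hsp70 gene, Apoe-deficient replicate 6 had a normalised log2 value of 14.2 against a group median of 14.4, and its gap to the nearest array was 0.68 of the group's range. The deposited signal of that array, 28300.1, was the second highest of its group, so the low value appears after quantile normalisation only.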

How the results depend on the processing

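The ER median stayed above 0 in all 25 alternatives, and it moved by more than the spread between arrays without the low control arrays (0.24) and without Apoe-deficient replicate 1 (0.49). Over the fits that left out 1 array it ran from 0.27 to 0.49. The cytosolic median was -0.11 with arrays scaled to a common median, -0.12 with no step between arrays, -0.11 with the control level blocked, -0.11 when the low control arrays were left out, and -0.12 to 0.031 without single arrays. The ER minus cytosolic difference was 0.46 with common-median scaling and with no step between arrays, and 0.31 to 0.52 without single arrays. Counts of called members moved with those of all genes, of which 1.93% were called with all arrays, 7.92% with array weights, 0.294% without the low control arrays, 0.0593% within the high level and 0.534% with the level blocked. The 2 called members became 6 with array weights (Manf, Pdia4, Hspa5, Hsp90b1, Canx and Dnajb9), 1 without the low control arrays (Creld2), 0 within the high level alone, and 1 to 5 without single arrays. With the control level as a block 2 were called, but these were Creld2 and Herpud1. With the replicate block 2 members were called, Manf and Pdia4, and the ER median was 0.38. Deviations of same-numbered arrays correlated from -0.18 to 0.15, which gave little sign of pairing. With so few pairs this check cannot show that the numbers are no more than a label. The causes were not tested. The number of arrays, and signals near the filter for Ern1, Trib3 and Hspa1a, limit what could be seen.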

Other observations

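ER genes differed in how they followed the control level among the Apoe-deficient arrays, a pattern noticed after the values were seen and not tested. The low arrays, replicates 2, 3 and 4, also had the smallest B and plasma cell marker sums of their group (12701, 16038 and 15594). Replicates 1, 5 and 6 had 28040, 28981 and 67320, so control level and marker sum cannot be told apart here. For Creld2, Herpud1 and Xbp1 the difference with the level as a block exceeded that with all arrays and no block (1.54 against 0.92, 0.66 against 0.33 and 0.51 against 0.25). For Canx, Dnajc3 and Dnajb9 it was smaller (0.11 against 0.36, 0.22 against 0.48 and 0.20 against 0.32). Canx had its highest signals, 6768.1, 6655.4 and 5724.8, in the low arrays, and 3605.4 in Apoe-deficient replicate 1, below all wild-type arrays (4043.4 to 5391.8). For Manf both values were nearly equal (0.55 against 0.54).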
